A study of Mus musculus with 18 samples.

Results

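The regions described here are stretches that carried a coding N6-methyladenosine (m6A) peak on days 2, 5 and 10 of adipogenesis in mouse 3T3-L1 cells. None had a coding peak on days -2 and 0, though an early peak of another transcript part overlapped 72. They were chosen by that pattern. Coding peaks of the 5 stage lists were merged where they shared at least 1 base, and a merged region was kept when each of the 3 late lists and neither early list held a coding peak in it. The rule kept 1259 of 32763 coding regions (3.84%), against 67750 regions of every kind in the 9 lists of the series. These late coding regions lay on 989 of the 9361 genes with a coding region in the stage lists (10.6%). Of the 989 genes, 769 already had a coding peak elsewhere on an early day (1000 regions), 101 had an early peak in another transcript part only (113 regions), and 119 had no early peak at all (146 regions).

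The series has 18 samples of 3T3-L1, a line of mouse embryo fibroblasts that can be induced by hormones to become fat cells. Messenger RNA was fragmented and bound by an m6A antibody (IP), and the IP library was set against its input library. This gave 9 peak lists from 9 pairs. There were 2 lists of cells with knockdown of the m6A demethylase Fto (siFTO) and 2 of cells with a control siRNA (siCtrl), and 1 list each of days -2, 0, 2, 5 and 10 without siRNA. The first siFTO and siCtrl samples carry no replicate number and are called replicate 1, the labels do not give the day of the siRNA cells, and separate cultures are not stated for the replicates. A p-value here measures only the spread between these samples, which may be technical.

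m6A is the most common internal mark of messenger RNA. A nuclear complex around Mettl3 and Mettl14 writes it at short motifs that often contain GGAC, Fto and Alkbh5 remove it, and reader proteins of the Ythdf and Ythdc families bind it and act on splicing, translation and decay of the transcript. In adipogenesis, early factors such as Cebpb and Cebpd give way to Pparg and Cebpa, which switch on the genes of lipid storage, and Fto is one of the genes linked to body fat.

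To show what such a region looks like, 3 are printed that lay wholly inside a RefSeq window around a gene start (250 bases before to 50 after, build GRCm38.p6). The windows belong to other genes (Gm52912, Gm52788 and Gm51452), and the 3 were taken from regions with the motif, which 5 of the 12 late regions inside a window lack on the strand of the gene. They are given 5′ to 3′ on the strand of the gene, with the motif GGAC in capitals. The stretches are genomic and may run past an exon end. Xpc (xeroderma pigmentosum C, a DNA damage sensor) is at chr6:91490101-91490275 on the minus strand, Pitpnm2 (a phosphatidylinositol transfer protein) at chr5:124131251-124131350 on the minus strand, and Lipt2 (a lipoyl transferase of mitochondria) at chr7:100160176-100160400 on the plus strand.
Xpc: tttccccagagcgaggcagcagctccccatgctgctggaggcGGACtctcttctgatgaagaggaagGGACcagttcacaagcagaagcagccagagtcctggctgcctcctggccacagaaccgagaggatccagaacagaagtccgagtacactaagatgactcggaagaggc
Pitpnm2: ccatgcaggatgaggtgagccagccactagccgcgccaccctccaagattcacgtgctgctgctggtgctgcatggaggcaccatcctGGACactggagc
Lipt2: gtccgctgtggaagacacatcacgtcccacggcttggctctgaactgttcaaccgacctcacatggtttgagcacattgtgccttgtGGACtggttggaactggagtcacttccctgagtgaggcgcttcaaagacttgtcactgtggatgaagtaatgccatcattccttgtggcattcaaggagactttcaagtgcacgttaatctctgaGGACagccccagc

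The motif stood in similar shares of these late regions and of other coding regions whose sequence could be read. GGAC stood on the strand of the gene in 7 of 12 late regions wholly inside a window (58.3%, exact Clopper-Pearson 95% interval 27.7% to 84.8%), against 89 of 155 coding regions of 100 to 225 bases inside a window (57.4%). On the other strand it stood in 6 of 12 late regions (50%), against 69 of 155 (44.5%). Both strands were searched for these 4 letters alone, and the 155 include the 12. A match is only a description of the letters. The fold of the Xpc region was 4.75, 4.27 and 5.87 on days 2, 5 and 10, that of the Pitpnm2 region 4.48, 4.17 and 5.40, and that of the Lipt2 region 4.18, 4 and 4.02. All lay below the median fold of all peaks of their list, which was 5.49, 5.86 and 6.30. Xpc and Pitpnm2 had earlier coding peaks elsewhere in the gene, while Lipt2 had no peak on days -2 and 0.

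The fold given for a peak is the authors' own value of IP over input, by a formula that the sources used here do not give, and it describes or ranks peaks within one list only. Where a region held several peaks on a day, the highest fold is given. From day -2 to day 10 the lists grew, with 26485, 37463, 39852, 44070 and 44529 peaks. The siFTO lists had 39476 and 31259 peaks, and the siCtrl lists 35979 and 39133. Read depth is unknown, since no read counts come with the peaks, and a longer list can hold a region by its length alone. In a bulk culture, fewer cells of a type and less RNA per cell cannot be told apart, and a peak that is absent from a list may stand on a transcript with too few reads to call it.

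Summed over the markers of fat cells, peaks were more numerous on the late days. Of 8 adipocyte markers, 5 and 4 had a peak of any part on days -2 and 0, and all 8 had one on each of days 2, 5 and 10. Their summed peak numbers were 11, 15, 51, 79 and 60 over the 5 days. Not every marker rose, as Lpl had 4, 3, 7, 2 and 2 peaks and Pparg 3, 2, 2, 6 and 4. Plin1, Adipoq, Cidec and Lipe hold late regions chosen by the rule, so their rise is not independent of it. Of 6 preadipocyte markers, 4 had a peak on each day from day 0, and their summed peaks were 20, 46, 40, 45 and 48, so these did not decline. The 5 macrophage markers had no peak on any day, though Csf1r had 1 in siFTO replicate 1 and 1 in siCtrl replicate 2; the endothelial marker Tek had 1 peak on day -2 alone, and of the muscle markers only Des had peaks, from 1 to 4. Each siRNA list held peaks of 4 of the 8 adipocyte markers, with 10 and 11 peaks in siFTO and 18 and 19 in siCtrl. The preadipocyte markers had 20 and 17 peaks in siFTO and 29 and 34 in siCtrl, so both marker sums were lower in siFTO. The widest gaps were those of Cebpa, with 1 and 2 peaks in siFTO and 7 and 8 in siCtrl, and Zfp423, with 2 and 2 against 9 and 11. Pparg went the other way, with 4 and 4 in siFTO and 3 and 2 in siCtrl, and Pdgfra had 17 and 13 against 15 and 16. Plin1, Adipoq, Cidec and Fabp4 were at 0 in all 4 siRNA lists.

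Most late regions were additions to genes already in the lists. Their median length was 125 bases (75 to 785), and that of all coding regions was also 125. Of the late regions, 72.6% were 150 bases or shorter, against 68.1% of all coding regions. Among the 6377 regions with a coding peak on all 5 days it was 34.7%, but a region merged from more lists can be longer by the merging alone. A single late region was found on 805 genes, 2 on 142, 3 on 28, 4 on 3, and 5 or more on 11, with at most 9 on one gene. On 118 genes every coding region of the stage lists was a late one. Along the RefSeq gene span, introns included, their median position was 72.0% of the way from the start (1233 regions), against 67.9% for all coding regions (32018 regions). Its last 20% held 40.5% of late regions and 35.4% of all coding regions.

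Late regions ranked low within the lists that defined them. Their median fold was 2.93 on day 2, 3.65 on day 5 and 3.63 on day 10, where all coding peaks of those days had medians of 4.85, 5.29 and 5.63 and all peaks of any part 5.49, 5.86 and 6.30. The median percentile of a late region among all peaks of its list was 22.7, 30.8 and 27.4. Above the middle of the list on all 3 days stood 202 regions (16.0%), and above percentile 90 on all 3 days stood 17. The rule used the presence of these same peaks, so their folds are given as a description.

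**Figure D1:**
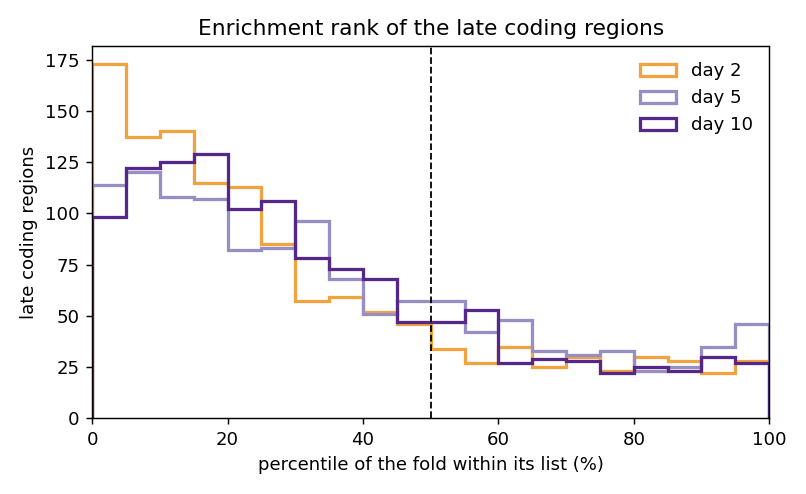
Percentile of the authors' fold of each of the 1259 late coding regions among all peaks of its list (horizontal axis, percent) against the number of regions in each bin (vertical axis), for days 2, 5 and 10. The dashed line is the middle of the list, and 22.4%, 29.6% and 24.7% of the late regions reached the median fold on days 2, 5 and 10.

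The edges of the rule were near to many regions. A region with coding peaks on days 2 and 5 alone was found 481 times, on days 2 and 10 alone 524 times and on days 5 and 10 alone 1468 times. Coding peaks were present on days -2, 2, 5 and 10 but not day 0 in 379 regions, and on days 0, 2, 5 and 10 in 7502. The number kept out by 25 shared bases or fewer with an early coding peak was 13, and 10 late regions directly adjoined one. On genes with an early coding peak, the median gap to the nearest one was 1038 bases (1000 regions), 130 regions lay within 100 bases and 494 within 1000. These gaps were counted along the genome, introns included, so a gap within the messenger RNA can be shorter. An early peak of another transcript part shared at least 1 base with 72 of the late regions, while 1187 had no early peak of any part. The number of regions rests on the day 0 and day 2 lists: it would be 8971 with the day 0 list left out and 2746 with the day 2 list left out. It would be 583 with peaks at or above the median coding fold of their list alone, and 438 with lists of equal length.

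Among lipid droplet and fat cell genes, Plin1 and Acsl1 carried runs of late regions. Of 36 genes of lipid storage, lipolysis and fatty acid uptake with a coding region, 11 had a late one (30.6%, against 10.6% of all genes with a coding region), with 28 late regions in all, of which Plin1 had 8 and Acsl1 7. Cidec, Cav1, Dgat2, Plin4, Pnpla2 and Slc27a1 had 1 each. Plin1, Adipoq, Cfd and Cidec were among the 119 genes with no early peak. The list was drawn up with earlier results of these data known, so its share is a description. The rest of the 11 were Acsl1, Cav1, Dgat2, Lipe, Plin4, Pnpla2 and Slc27a1.

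Plin1 (ENSMUSG00000030546, chromosome 7, 79721164 to 79732904, GRCm38.p6) encodes the perilipin that coats the lipid droplet of fat cells. It had 0, 0, 9, 11 and 9 coding peaks on days -2, 0, 2, 5 and 10, and none in the siFTO lists and none in the siCtrl lists. Its 9 coding regions included 8 late ones, spread along the gene from 24.6% to 95.9% of its length. The highest, at 79723301 to 79723475, had a fold of 98.2, 119 and 15.0 on days 2, 5 and 10, and the lowest, at 79727951 to 79728075, of 9.83, 13.7 and 3.18. All 8 regions stood at percentile 70.4 or above on day 2 and 76.8 or above on day 5, while on day 10 they ran from percentile 21.9 to 77.3.

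**Figure D2:**
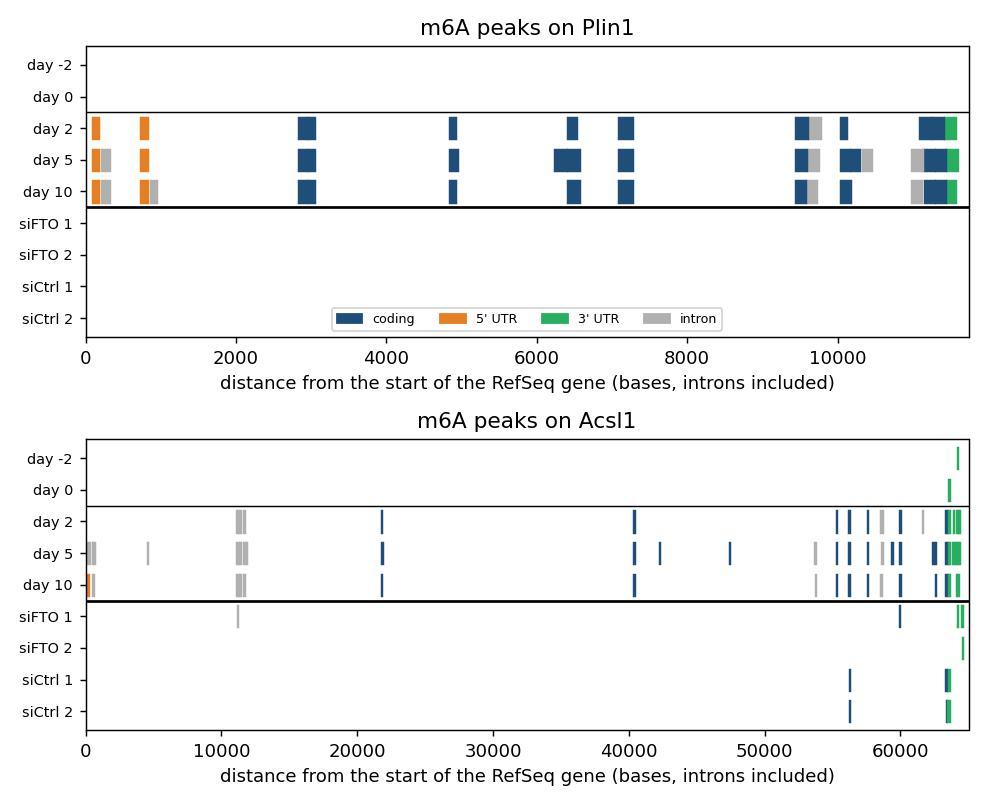
Peaks of each list along Plin1 and Acsl1, by distance in bases from the start of the RefSeq gene (horizontal axis), with stage lists above, siFTO and siCtrl lists below, and colours for the transcript part the authors gave. Plin1 has peaks on days 2, 5 and 10 alone, and Acsl1 has 3′ UTR peaks on every day beside coding peaks that start on day 2.

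Adipoq (ENSMUSG00000022878), the gene of the hormone adiponectin, had 0, 0, 3, 5 and 5 coding peaks over the 5 days and none in any siFTO or siCtrl list. Its late regions at chromosome 16, 23155201 to 23155475 and 23157051 to 23157600, are the only coding regions of the gene. The first had a fold of 14.9, 35.9 and 15.8 on days 2, 5 and 10, and the second of 18.6, 32.1 and 15.4. Both stood at percentile 77.9 or above in each of the 3 lists.

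Cfd, which encodes adipsin, a secreted complement factor of fat cells, had 0, 0, 2, 5 and 5 coding peaks, and none in the siRNA lists. Its late regions had folds of 13.1, 8.91 and 7.88, and of 13.8, 8.02 and 3.78. Cidec, a protein that fuses lipid droplets, had 0, 0, 3, 6 and 1 coding peaks and 1 late region, with a fold of 28.3, 25.3 and 2.86. These genes were at 0 in siFTO and in siCtrl.

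Acsl1, the synthetase that couples long-chain fatty acids to coenzyme A, had no early coding peak but 1 early peak of another part on each of days -2 and 0. It had 7, 12 and 8 coding peaks on days 2, 5 and 10, against 1 and 0 in siFTO and 2 and 2 in siCtrl. Of its 7 late regions, the one at chromosome 8, 46528576 to 46528675, had the highest fold on each day, at 14.9, 34.5 and 9.20, and the one at 46511351 to 46511475 had 2.48, 6.03 and 1.37. Its early peaks lay in the 3′ UTR. Introns of Acsl1 also had peaks on days 2, 5 and 10 and none before, the highest on day 2 with a fold of 159.

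Genes of triglyceride turnover differed in their earlier peaks. Lipe, the hormone-sensitive lipase, had 0, 2, 6, 12 and 6 coding peaks and 3 late regions, of which the one at chromosome 7, 25395501 to 25395650, had a fold of 7.49, 15.1 and 3.98 and was also held by all 4 siRNA lists, at 4.67 and 4.22 in siFTO and 4.40 and 4.93 in siCtrl. Pnpla2, the first triglyceride lipase, had 1 coding peak on each late day and none before, and its region had a fold of 3.30, 6.02 and 3.00. Dgat2, which makes triglyceride, had 1 early coding peak on day -2 and 1 late region of 2.46, 2.65 and 1.55. On day 10 these 3 regions stood at percentiles 31.3, 19.5 and 1.55 of the list.

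Slc27a1, a fatty acid transporter, had 0, 5, 6, 8 and 10 coding peaks with a single late region of 2.75, 3.41 and 4.36. Plin4, a second perilipin, had 10, 15, 17, 21 and 22 coding peaks, and its 1 late region had a fold of 2.09, 4.26 and 2.62. Cav1, the caveolin of the fat cell membrane, had a late region of 1.19, 2.85 and 1.55 that all 4 siRNA lists held too. Of the 25 genes of fatty acid and cholesterol synthesis with a coding region, only Fasn and Dhcr7 had a late one (8%). Fasn, the fatty acid synthase, had 3, 4, 5, 18 and 16 coding peaks, with 1 late region of 2.13, 2.53 and 3.17.

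**Figure D3:**
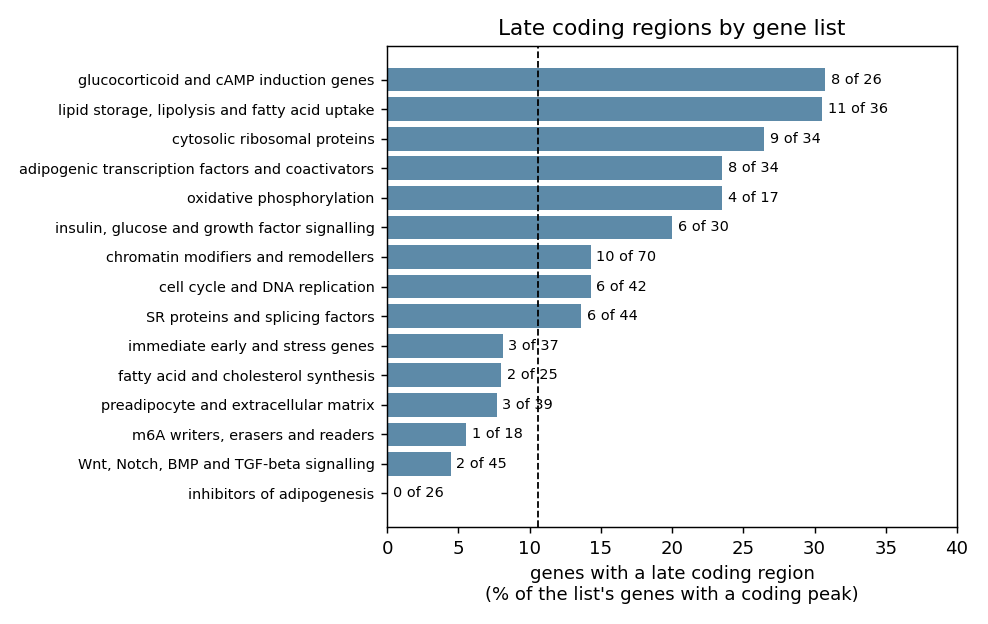
Share of genes with a late coding region (horizontal axis, percent) among the genes of each list with a coding region in the stage lists, with the counts beside each bar. The dashed line is the share over all genes, 10.6%; the induction and lipid storage lists stand at 30.8% and 30.6%, and the inhibitors of adipogenesis at 0.

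Central regulators of adipogenesis had no late coding region. Pparg, the master factor of fat cells, had 1, 1, 1, 3 and 2 coding peaks over the 5 days, and Cebpa 1, 6, 6, 6 and 6. Cebpb had 1, 5, 5, 4 and 5, and Cebpd 1, 5, 6, 6 and 6. Each of these 4 already had a coding peak on day -2. Fabp4, a fatty acid carrier of fat cells, had 1, 0, 0, 3 and 2, and Lpl, the lipoprotein lipase, 1, 1, 5, 0 and 0. The demethylase Fto had 0, 3, 3, 3 and 4 coding peaks on the 5 days, 4 and 3 in siFTO and 4 and 4 in siCtrl. A peak number does not give the level of Fto RNA.

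Other factors of the programme carried late regions. Of 34 adipogenic transcription factors and coactivators with a coding region, 8 had a late one (23.5%, 14 regions). Ppargc1b, a coactivator of mitochondrial genes, had 2, 2, 11, 10 and 6 coding peaks and 3 late regions, with folds of up to 30.5 on day 2 and as low as 4.98 on day 10. Esrra, its partner receptor, had 0, 3, 7, 7 and 7, and its 3 late regions ranged from 2.36 to 5.10. Rxrb, a nuclear receptor of the retinoid X family, had 4, 6, 7, 8 and 8 and 1 late region of 7.42, 8.75 and 9.91, over which early lists and all 4 siRNA lists held a 3′ UTR peak. Nr1h3, the oxysterol receptor, had 0, 1, 2, 6 and 3 and a late region of 4.46, 6.57 and 5.20. Srebf1, Klf5, Rxra and Cebpg completed the 8. The late region of Cebpg had a fold of only 1.36, 1.23 and 1.2, and that of Rxra 1.67, 3.35 and 2.39. Those of Srebf1 ranged from 1.58 to 3.8 and those of Klf5 from 3.69 to 19.35. In the list of 26 inhibitors of adipogenesis with a coding region, none had a late region.

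Genes answering glucocorticoid and cAMP, the agents of induction in the usual cocktail for these cells, had late regions on 8 of 26 genes (30.8%, 9 regions). Fkbp5, a cochaperone of the glucocorticoid receptor, had 4, 4, 7, 6 and 7 coding peaks and a late region of 4.08, 5.36 and 8.89. Zbtb16, a zinc finger repressor, had 2, 3, 6, 10 and 7 and a late region of 3.8, 12.4 and 6.49. Sik1, a kinase that responds to cAMP, had 1, 3, 7, 5 and 3 and a late region of 3.55, 3.45 and 3.15, and the clock gene Per2 1, 2, 10, 4 and 4 and one of 5.94, 2.90 and 5.67. The other 4 genes were Adcy6, Crtc2, Sik2 and Sik3. Their folds were lower, with 1.65, 2.13 and 1.81 for Adcy6, 2.53, 1.98 and 2.27 for Crtc2, and 1.44, 2.3 and 1.91 for Sik2. The late regions of Sik3 ranged from 2.39 to 5.24.

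Insulin and growth factor signalling had late regions on 6 of 30 genes (20%, 9 regions). Tbc1d4, which holds back glucose transporters, had 0, 1, 8, 9 and 5 coding peaks and 3 late regions. The one at chromosome 14, 101444551 to 101444675, had a fold of 2.51, 8.24 and 12.4. All 4 siRNA lists held it, at 19.1 and 23.8 in siFTO and 3.63 and 5.26 in siCtrl. The median fold of all peaks was 4.09 and 4.06 in the siFTO lists, and 3.45 and 3.49 in the siCtrl lists. Folds rank peaks within one list only, so they are not compared between lists here or for other genes. Pde3b, the phosphodiesterase through which insulin lowers cAMP, had 0, 2, 3, 4 and 3 and a late region of 5.28, 11.5 and 6.96. Mtor, the growth kinase, had 4, 0, 2, 4 and 2 and a region of 2.97, 3.8 and 4.26. Tsc1 and Tsc2 were also among the genes with a late region.

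**Figure D4:**
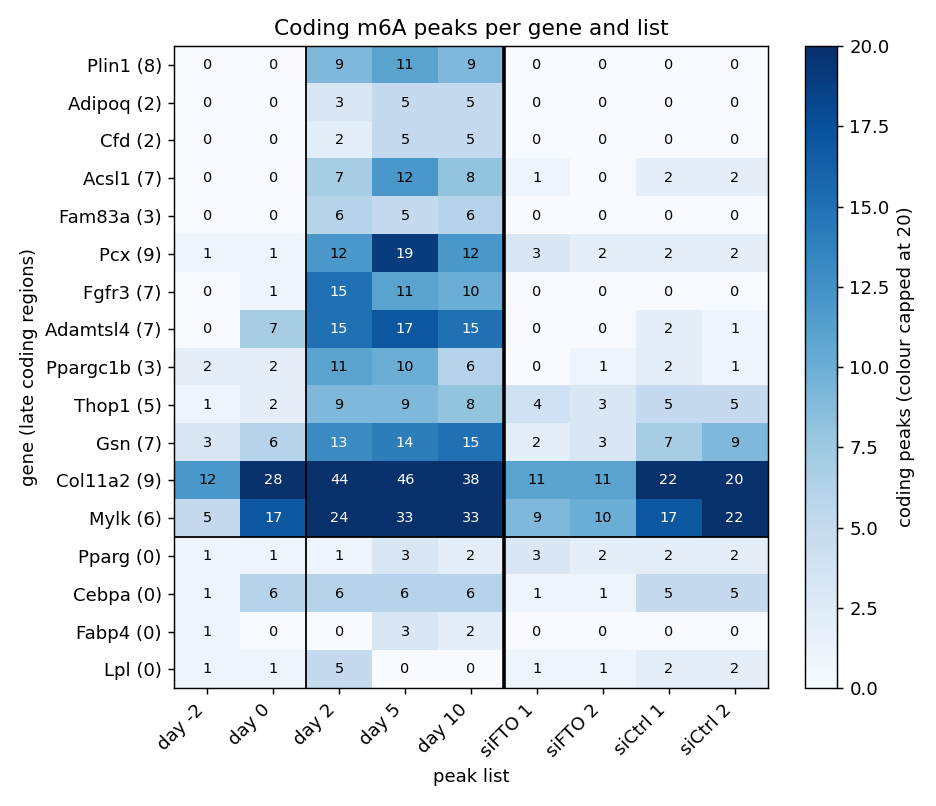
Number of coding peaks in each list (columns: the 5 stages, then siFTO and siCtrl) for genes with late coding regions (number in brackets) and, below the line, for 4 fat cell genes without one. Plin1, Adipoq, Cfd and Fam83a are at 0 on both early days and in all 4 siRNA lists, while Pcx has 1 coding peak on each early day, against 12, 19 and 12 on days 2, 5 and 10.

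Metabolic and structural genes outside the gene lists also held many late regions on one gene, up to 9. Pcx, pyruvate carboxylase, which supplies oxaloacetate for lipid synthesis, had 1, 1, 12, 19 and 12 coding peaks and 9 late regions out of 18. Their folds were low, from 1.16 to 3.98. They lay in the last 20% of the gene span, from 81.9% to 98.9% of its length, and only the region at chromosome 19, 4602201 to 4602375, was held by siRNA lists, with 1.59 and 2.11 in siFTO and 1.72 and 1.61 in siCtrl.

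Col11a2, a fibrillar collagen chain, had 12, 28, 44, 46 and 38 coding peaks, against 11 and 11 in siFTO and 22 and 20 in siCtrl. It had 9 late regions of 47, 5 of them 75 bases long. The one at chromosome 17, 34051601 to 34051675, had the highest day 2 fold of the gene's late regions, with 70.8, 41.1 and 13.9. Fgfr3, a fibroblast growth factor receptor, had 0, 1, 15, 11 and 10 coding peaks and none in siFTO or siCtrl, and 7 late regions with folds from 5.38 to 20.3. These 7 regions of Fgfr3 and 8 of the 9 of Col11a2 were in no siRNA list.

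Gsn, the actin-severing gelsolin, had 3, 6, 13, 14 and 15 coding peaks, against 2 and 3 in siFTO and 7 and 9 in siCtrl, and 7 late regions with folds from 1.31 to 7.22. Adamtsl4, a protein of fibrillin microfibrils, had 0, 7, 15, 17 and 15, against 0 and 0 in siFTO and 2 and 1 in siCtrl, and 7 late regions from 2.90 to 12.8. Mylk, myosin light chain kinase, had 5, 17, 24, 33 and 33, against 9 and 10 in siFTO and 17 and 22 in siCtrl, with 6 late regions. On each of these genes, both siFTO lists held fewer coding peaks than either siCtrl list, a comparison that was made after their values were seen and was not tested. Among the 10 genes with the most late regions, Pcx did not follow, with 3 and 2 in siFTO and 2 and 2 in siCtrl. Plin1 and Fgfr3 had no coding peak in any siRNA list. All coding regions were also held less often in siFTO, at a mean of 45.7% against 53.4% in siCtrl. Fbf1, a centriole protein, and Thop1, a peptide-cutting metalloprotease, had 5 late regions each.

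Genes that were new to the lists held some of the highest ranked single regions. Among the 119 genes with no early peak, the 10 with the highest worst percentile over the 3 late days were Cdkn1c, Gdf5, Il17re, Lag3, Itpka, Ppp1r1b, Fam83a, Sms, Clmn and Ybx2. Cdkn1c, the p57 inhibitor of cell cycle kinases, led them with a region at chromosome 7, 143459876 to 143460075, of 94.3, 73.6 and 98.6. Gdf5, a growth factor of the BMP family, had 122, 171 and 62.7. Il17re, an interleukin 17 receptor chain, had 45.2, 157 and 131. Lag3, a receptor known from T cells, had 88.4, 51.2 and 49.8 and was the one gene of the 10 whose late region was in siRNA lists, at 13.9 in siFTO replicate 1 and 39.2 and 30.1 in siCtrl.

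Fam83a, a scaffold of casein kinase 1, had 0, 0, 6, 5 and 6 coding peaks and 3 late regions. The first, at chromosome 15, 57986064 to 57986550, had the highest fold of any late region, 1321 on day 5, beside 39.4 on day 2 and 34.8 on day 10. Ppp1r1b, which inhibits protein phosphatase 1, had a region of 57.2, 403 and 39.3, Itpka, an inositol trisphosphate kinase, one of 108, 79.9 and 39.3, and Ybx2, an RNA binding protein known from germ cells, one of 66.8, 85.3 and 29.0. Sms, spermine synthase, had 2 regions, of 45.2, 23.3 and 31.6 and of 49.1, 40.4 and 32.6, and Clmn one of 40.6, 89.8 and 32.1. The order of these genes by fold differed between the 3 lists.

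The 10 highest ranked genes with an earlier peak were Fam107a, Podn, Cir1, Mrps5, Map3k1, Tmem88b, Kcnn1, Kcnk3, Slc2a13 and Npnt. Fam107a, an actin-associated protein, had 1, 0, 3, 3 and 3 coding peaks, and its region at chromosome 14, 8298614 to 8298800, had 95.3, 312 and 385. Podn, a small leucine-rich matrix protein, had 55.0, 47.6 and 67.0. Kcnk3, a potassium channel, had 230, 124 and 30.1 at its start, where early lists held a 5′ UTR peak. Npnt, a matrix ligand of integrins, had 24.6, 101 and 42.1, and Map3k1, a kinase of the stress cascade, 39.3, 39.5 and 56.5. Mrps5, of the mitochondrial ribosome, had 57.0, 44.0 and 43.1.

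High folds among the late regions often repeat the exact fold of other genes. Of the 20 regions that led both rankings, 19 had on at least 1 day a fold that was also printed for a peak of another gene in the same list, and 16 had so on all 3 days. Fam107a had none. Among late regions with a fold over 20, 59 of 70 on day 2, 97 of 112 on day 5 and 81 of 88 on day 10 shared the fold with another gene (84.3%, 86.6% and 92.0%). Among all peaks over 20 in those lists the share was 69.1%, 74.5% and 71.1%. Whether such folds rest on few input reads was not tested.

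Cytosolic ribosomal proteins had 9 genes of 34 (26.5%, 10 regions), and Rpl3 had a region of 22.3, 33.0 and 29.1 and Rpl14 one of 72.9, 16.4 and 44.1. Ribosomal protein genes have many processed pseudogenes, so reads may be shared between copies. Subunits of oxidative phosphorylation had 4 of 17 (23.5%): Uqcrc1, a core subunit of complex III, had 2.33, 3.57 and 3.89, Ndufs7 of complex I 2.78, 1.84 and 3.05, Ndufs3 of the same complex 1.66, 1.81 and 2.66, and Cox6a1 of complex IV 5.86, 4.78 and 6.78. On day 2 these 4 regions stood at percentiles 13.4, 20.5, 3.55 and 52.4 of the list, so Cox6a1 was near its middle. The Cox6a1 region lay under an intron peak on day 0 and 12 bases from an early coding peak of the gene. The siCtrl peaks over it were intron peaks too.

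Cell cycle and replication genes had 6 of 42 (14.3%), of which 3 had no early peak. Mcm5, a subunit of the replicative helicase, had 0, 0, 3, 4 and 4 coding peaks and 2 late regions, of 2.19, 3.28 and 4.44 and of 2.56, 4.60 and 4.55. Aurkb, the mitotic kinase, had a region of 3.5, 14.2 and 9.58 that both siFTO lists held, at 3.31 and 1.92, and neither siCtrl list did. Mki67, the proliferation marker, had 18, 4, 7, 17 and 9 coding peaks and a region of 1.88, 5.13 and 5.17 that all 4 siRNA lists held.

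Chromatin modifiers had 10 of 70 (14.3%), with 2 regions each on the histone methyltransferase Kmt2b and the acetyltransferase Kat2b, and splicing factors 6 of 44 (13.6%), with 2 on Hnrnpk. Immediate early and stress genes had 3 of 37 (8.11%), on Dusp4, Hspa8 and Nr4a1. The joint list of preadipocyte and extracellular matrix genes had 3 of 39 (7.69%), on Col4a2, Hspg2 and Loxl1. It did not include Col11a2, Adamtsl4, Podn and Npnt, so its share is not that of matrix genes at large. Signalling genes of the Wnt, Notch, BMP and TGF-beta pathways had 2 of 45 (4.44%), on the Wnt transducers Dvl1 and Lrp5. Of 18 m6A writers, erasers and readers, only Rbm15, a subunit that guides the writer, had a late region (5.56%), at 4.45, 8.38 and 4.74. These shares stand on both sides of the 10.6% of all genes.

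The siRNA lists, which the rule did not use, held fewer late regions in siFTO than in siCtrl. A peak of any part lay over 332 and 285 of the 1259 regions in siFTO (26.4% and 22.6%), against 415 and 465 in siCtrl (33.0% and 36.9%). The siFTO lists were both below the siCtrl lists, with means of 24.5% ± 2.64 and 34.9% ± 2.81 (SD, n = 2 each). The difference was -10.4 points, and the two-sided exact permutation test gave p = 0.333 (0.333 adjusted over 3 comparisons), the smallest that 2 against 2 lists allow. With siRNA lists of equal length the difference was -4.96 points, and with peaks at or above the median fold of their list -3.18. All coding regions moved the same way, at 45.7% ± 2.20 in siFTO and 53.4% ± 1.41 in siCtrl, a difference of -7.63 points (exact permutation p = 0.333).

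Late regions were held less often than all coding regions in each of the 4 lists. The share of late regions minus that of all coding regions was -21.2 ± 0.436 points in siFTO and -18.4 ± 1.40 in siCtrl (SD, n = 2 each), a difference of -2.81 points (exact permutation p = 0.333). It was -0.634 points when siRNA peaks had to cover 50% of the region, and it turned to 0.284 when only siRNA peaks at or above the median fold of their list were used. A lower share of late regions in siFTO came with a lower share of coding regions in general. With siRNA lists of equal length the difference in this excess was -2.51 points (exact permutation p = 0.667). Read depth is unknown, and its part in these shares was not tested.

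**Figure D5:**
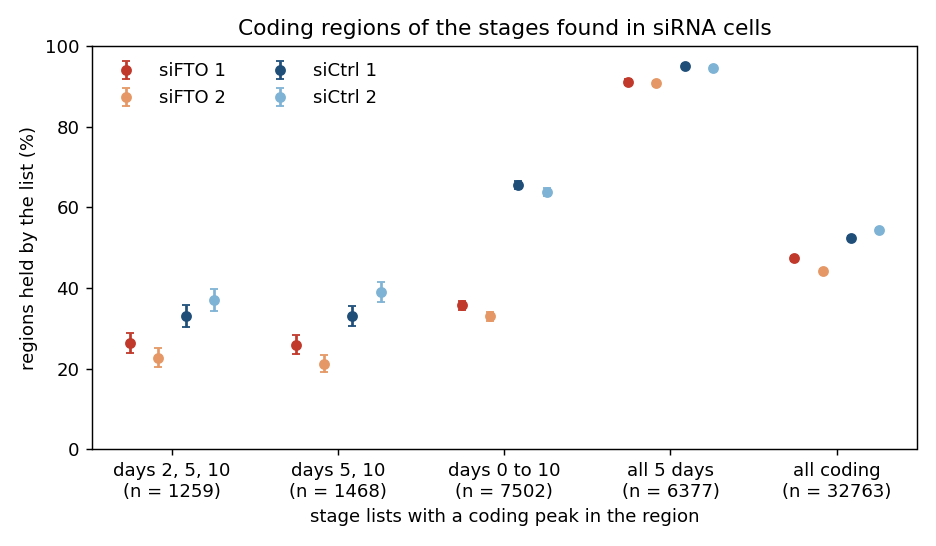
Share of coding regions held by a peak of any part in each siFTO and siCtrl list (vertical axis, percent, with exact Clopper-Pearson 95% intervals that cover counting error only), for late regions, other stage patterns and all coding regions. Late regions stand at 22.6% to 36.9%, close to regions of days 5 and 10 alone, and regions with peaks on all 5 days at 90.7% to 95%.

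No siRNA list held 656 of them (52.1%), against 33.4% of all coding regions, and all 4 held 160 (12.7%), against 32.4%. Regions that began on day 0 were held at 35.7% and 33.0% in siFTO and 65.5% and 63.8% in siCtrl, and those of days 5 and 10 alone at 26.0% and 21.1% in siFTO and 33.0% and 38.9% in siCtrl. Of the late regions on genes with no early peak, 21.2% and 21.2% were held in siFTO and 23.3% and 24.7% in siCtrl. On genes with an early coding peak it was 27% and 22.8% in siFTO and 34.5% and 39.1% in siCtrl. The 119 genes with no early peak had a peak of any part on 58 and 51 genes in siFTO, against 43 and 46 in siCtrl. Of these 119 genes, 35 had none in any siRNA list. Over all 989 genes with a late region, 836 and 802 had a peak in siFTO and 819 and 836 in siCtrl. For genes with an early peak in another part only, it was 74 and 63 in siFTO and 63 and 71 in siCtrl. These differences were not tested.

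Held by both lists of siFTO but by no siCtrl list were 56 late regions (4.45%), where the share over all coding regions was 5.90%. Held by both lists of siCtrl but by no siFTO list were 151 (11.99%), where it was 12.1%. Either share was near that of coding regions in general, but no siRNA list held 52.1% of late regions, against 33.4% of all coding regions. The general share also mixes stage patterns that differ. The siCtrl pattern was found in 2014 of 7502 regions that began on day 0 and 198 of 1468 of days 5 and 10 alone. Of the 6377 regions with peaks on all 5 days, 287 had it. Near shares therefore do not show that late regions behaved like other coding regions. Among named genes, the first pattern included the regions of Aurkb and Fasn and 1 of Mylk, and the second 2 regions each of Acsl1, Gsn and Thop1 and 1 each of Fbf1, Kcnn1, Nr1h3 and Hnrnpl. Mylk also had 1 region of the second pattern, so its regions went both ways. The kit does not mark the strand of the RNA, so peaks on overlapping genes cannot be told apart by strand. With siFTO replicate 2 left out, the 56 became 90.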

How the data were processed

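Messenger RNA of 3T3-L1 cells was enriched with an m6A antibody and sequenced beside its input, per the labels' protocols. TopHat2 2.0.9, bedtools and the build mm10 are named in the submitters' processing notes. The sources used here do not give the peak caller or its thresholds. The deposited value per peak is an enrichment, per the file headers, read here as a fold (ratio) of IP over input. Each of the 9 lists is 1 IP and input pair, so peaks were not called on pooled samples. Lines of the mitochondrial genome were left out.

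Coding peaks were merged with Python 3.11.15, pandas 2.3.3 and numpy 2.4.6, and the exact permutation test and Clopper-Pearson 95% intervals came from scipy 1.17.1. They cover counting error only, and depth is unknown. The merging was tested on simulated data. Of 12634 gene IDs, 12492 had a symbol, as had 983 of the 989 genes with a late region. The 18 gene lists and the members were chosen with earlier results of these data known. Genes were named by the highest worst fold percentile over the late days (10 without and 10 with an earlier peak), the most late regions (10), up to 4 per gene list by the same percentile, and Pparg, Cebpa, Cebpb, Cebpd, Fabp4, Adipoq, Lpl, Plin1 and Fto. Others (such as Cidec, Lipe, Pnpla2, Dgat2, Slc27a1, Plin4, Cav1, Xpc, Pitpnm2 and Lipt2) were named after their values were seen. Identical positions in both lists of a condition had the same fold in 66 of 12260 cases in siFTO and 168 of 17581 in siCtrl, so they were used as separate samples. Sequences are RefSeq promoter windows, GRCm38.p6.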

Additional observations from a re-analysis of the deposited data

How the results depend on the processing

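Of the alternatives to the reported values, 85 changed a value by less than its spread or a count by less than 1.5 times, 24 moved one and 1 reversed one. The 1259 late regions became 583 with peaks at or above the median fold and 438 with lists of equal length. The 220 genes without an early coding peak became 103 with lists of equal length and 119 where any transcript part counted. Leaving out one stage list was added after seeing the data: without day 0 there were 8971 regions and 1894 genes, without day 2 there were 2746 and 391, and without day -2 the genes were 377, as fewer lists then bind the rule. The shares held were 23.4% and 19.7% in siFTO and 29.4% and 33.3% in siCtrl where peaks had to cover 50% of a region, and 8.02% and 6.59% in siFTO and 9.77% and 11.2% in siCtrl at or above the median fold. With equal list lengths siFTO replicate 1 held 17.3% and siCtrl 25.3% and 24.5%. The difference in shares was -4.96 points with equal siRNA list lengths and -3.18 at or above the median fold, and the excess was -0.634 (exact permutation p = 1) with 50% cover. The excess difference reversed to 0.284 (exact permutation p = 0.667) at or above the median fold, and the cause was not tested. The regions held by both siFTO lists alone became 22 there, and those held by both siCtrl lists alone became 48 there and 96 with equal lengths. Leaving out each replicate gave -12.4 to -8.46 points for the share, -3.80 to -1.83 for the excess, 60 to 90 regions held in siFTO alone and 173 to 200 in siCtrl alone. The replicate block left -10.4 and -2.81 points (exact permutation p = 0.5 each) and the counts of 56 and 151. The labels do not tie the numbers, and same-numbered deviations had a correlation of -0.029. The motif share over every region and its alternatives were not run, as no genome was used here. Unknown depth limits what an absent peak shows.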

Other observations

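Some late regions lay on metabolic and secreted-protein genes outside the gene lists, and these genes were picked after their values were seen. Of the enzymes that break down branched-chain amino acids, a fuel that fat cells use for lipid synthesis, Bcat2, the first transaminase, had 0, 0, 1, 3 and 2 coding peaks on days -2, 0, 2, 5 and 10, and a late region of fold 2.03, 2.94 and 2.62. Bckdha, a subunit of the next enzyme, had 1, 5, 8, 9 and 8 coding peaks and 3 late regions from 1.65 to 4.13, and Ivd, which acts on the leucine branch, had 0, 0, 2, 2 and 2 with 2 late regions from 1.69 to 3.46. Bcat2 and Ivd had no coding peak in any siFTO or siCtrl list, and Bckdha had 1 and 2 in siFTO and 4 and 4 in siCtrl.

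A few genes of secreted blood proteins, likewise picked after their values were seen and not from a full list, had no peak on the early days. Lrg1 held the longest late region, 785 bases at chromosome 17, 56119966 to 56120750, with a fold of 12.9, 78.5 and 498 on days 2, 5 and 10. Hp, haptoglobin, had 0, 0, 1, 6 and 1 coding peaks and a late region of 1.28, 7.95 and 1.89. Orm2 and Orm3, close copies of the orosomucoid gene whose reads may be shared, had late regions of 6.77, 12.2 and 6.70, of 2.32, 2.00 and 2.03, and of 2.79, 1.70 and 2.46. Taldo1, of the pentose phosphate pathway, had 0, 0, 3, 2 and 2 coding peaks, with 2 and 2 in siFTO and 0 and 0 in siCtrl.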
